A study of Mus musculus with 2 samples.

Results

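The insulin-like growth factor (IGF) system was examined in the fetal mouse esophagus through 10 genes. These are the ligands Igf1 and Igf2, the receptors Igf1r and Igf2r, and the binding proteins Igfbp2, Igfbp3, Igfbp4, Igfbp5, Igfbp6 and Igfbp7. They were chosen by name, as all probe sets (groups of probes that report 1 transcript) with exactly 1 of these gene symbols in the platform annotation. That gave 28 probe sets of the 34945 with a single symbol, and 10 of the 18193 genes these cover. The series holds 2 arrays. One was hybridised with esophagus RNA of BALB/c embryos labelled null for both Myf5 and Myod (Myf5-/-:MyoD-/-), and the other with esophagus RNA of wild-type (WT) BALB/c embryos, all at E18.5, shortly before birth. The proteins Myf5 and MyoD are transcription factors that start the skeletal muscle programme, and the study, by its title, concerns how striated muscle takes the place of smooth muscle as the esophagus develops. The sources used here do not say how many embryos gave each RNA sample.

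IGF1 and IGF2 are secreted growth factors that signal through the tyrosine kinase receptor IGF1R, while IGF2R binds IGF2 and delivers it to lysosomes. The binding proteins hold the ligands outside the cell and either restrain them or bring them to receptors, and proteases release the ligand again. In muscle, IGFs promote both the proliferation and the differentiation of myoblasts, and Igf2 is an imprinted gene that is highly active before birth.

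There was 1 array per genotype, so no difference given here has a replicate check or a test, and no p-value is given. Values are MAS5 signals, which are intensities in arbitrary units that the authors scaled to the same trimmed mean on each array. A signal of 489, the median over both arrays without their control probe sets, served as a low-signal limit, and lower signals were raised to it before the log2 ratio of the null over the WT array was taken. A probe set under the limit on both arrays counted as not measured, and one under it on 1 array has only a bound. Probe sets bind with different strength, so their signals were compared between arrays and not with each other. The only spread available is that of the log2 ratios of probe sets of 1 gene, with a pooled SD of 0.56 over 5455 genes, and it holds no variation between embryos.

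The arrays differed far more in striated muscle than in the IGF genes. All 12 striated muscle markers were at least 2-fold lower on the null array, with a summed signal of 8792 on the null and 380127 on the WT array, and 6 of them, Myh8, Actn2, Tnnc2, Myog, Ryr1 and Chrna1, lay under the limit on the null array. Of 9 smooth muscle markers, 3 were at least 2-fold higher and 0 lower, with summed signals of 656541 and 323926 on the null and WT arrays. Mylk (326483 on the null and 115515 on the WT array) and Acta2 (242976 and 131127) dominate these sums. Among the 3 higher markers, Lmod1 has only a bound. The markers Tagln and Cnn1 read lower on the null array, with log2 ratios of -0.47 and -0.76, and the other 7 read higher. The 8 fibroblast markers summed to 470047 on the null and 350039 on the WT array, sums dominated by the collagen genes Col1a1, Col1a2 and Col3a1. By marker, 5 read higher and 3 lower on the null array, with a median log2 ratio of 0.18. Postn, at -1.21, was the 1 marker at least 2-fold lower, and 0 were at least 2-fold higher. Liver markers, examined because liver makes IGFs, summed to 14655 and 14842. All 6 squamous epithelium markers analysed were above the limit on both arrays, summing to 402650 on the null and 351170 on the WT array. That sum is dominated by Krt4 (259124 on the null and 173385 on the WT array), while 4 of the 6 read lower on the null array. The median log2 ratio of the 6 was -0.34. Krt14, at -1.30, was the 1 at least 2-fold lower, and 0 were at least 2-fold higher. Endothelial markers summed to 6709 and 6375 on the null and WT arrays, neuron and glia markers to 4852 and 6158, cartilage markers to 2707 and 1718, lung epithelium markers to 3953 and 2025, and blood markers to 11340 and 9504. Each sum is weighted towards its brightest markers and can include markers below the limit. Of 5 measured neuron and glia markers, 2 were at least 2-fold lower on the null array, Ret and Snap25, and 0 were higher by as much. Of 5 measured endothelial markers, 1 was at least 2-fold higher, Emcn as a bound, and 0 were lower by as much. Only 2 of the 6 cartilage markers were measured. Among the 5 measured blood markers, 2 were at least 2-fold higher on the null array, Ptprc (5010 on the null and 585 on the WT array) and Lyz2. C1qb was the 1 at least 2-fold lower. The single Myf5 probe set read 496 on the null and 4072 on the WT array. The brighter Myod1 probe set read 1698 on the null and 2001 on the WT array, and since its place relative to the deletion is unknown here, it checks nothing. The Y-linked gene Eif2s3y read 2402 on the null and 10.6 on the WT array, while Xist, which is active in female cells, read 24254 on the null and 42465 on the WT array. The sex of the embryos is not stated in the labels used here, and it cannot be told apart from genotype. The 3' to 5' signal ratio of the beta-actin control, which reflects RNA integrity, was 14.2 on the null and 12.6 on the WT array, and that of Gapdh was 6.96 and 10.5. Both controls thus read several-fold stronger at the 3' end on both arrays, and what this does to the probe set ratios was not tested. The part of these differences in the IGF values was not tested, and fewer cells of a type and less RNA per cell cannot be told apart.

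At the brightest probe set of each gene, all 10 members were above the limit on both arrays. One of them, Igfbp2, was at least 2-fold lower on the null array and 0 were at least 2-fold higher. Over all 13315 measured genes, the share at least 2-fold lower was 5.36%, and the share at least 2-fold higher was 6.01%. They were 714 and 800 genes, a split that became 804 and 546 with quantile normalization, 938 and 449 with loess on signal, and 831 and 612 after centring on the median. A count of 1 in 10 is too small to be set apart from that background. Of the 10 members 7 had a log2 ratio below 0, against 43.4% of all measured genes, and the median of the 10 was -0.38, against 0.09 for all measured genes. Igfbp5, one of the 7, had a ratio of 0.02 with quantile normalization. Loess moved the median of all genes to -0.02 and that of the members to -0.45.

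Counted by probe set, the members looked less one-sided. Of the 28 probe sets, 26 were measured, 13 with a ratio below 0 and 13 above, with a median of 0.00 against 0.11 for all measured probe sets of a single gene. Of these 26, 3 were at least 2-fold lower, against a background of 4.94%, and 1 was at least 2-fold higher, against 5.94%. The 3 lower probe sets belong to Igf1, Igfbp2 and Igfbp3, and the higher one to Igf1r.

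**Figure D1:**
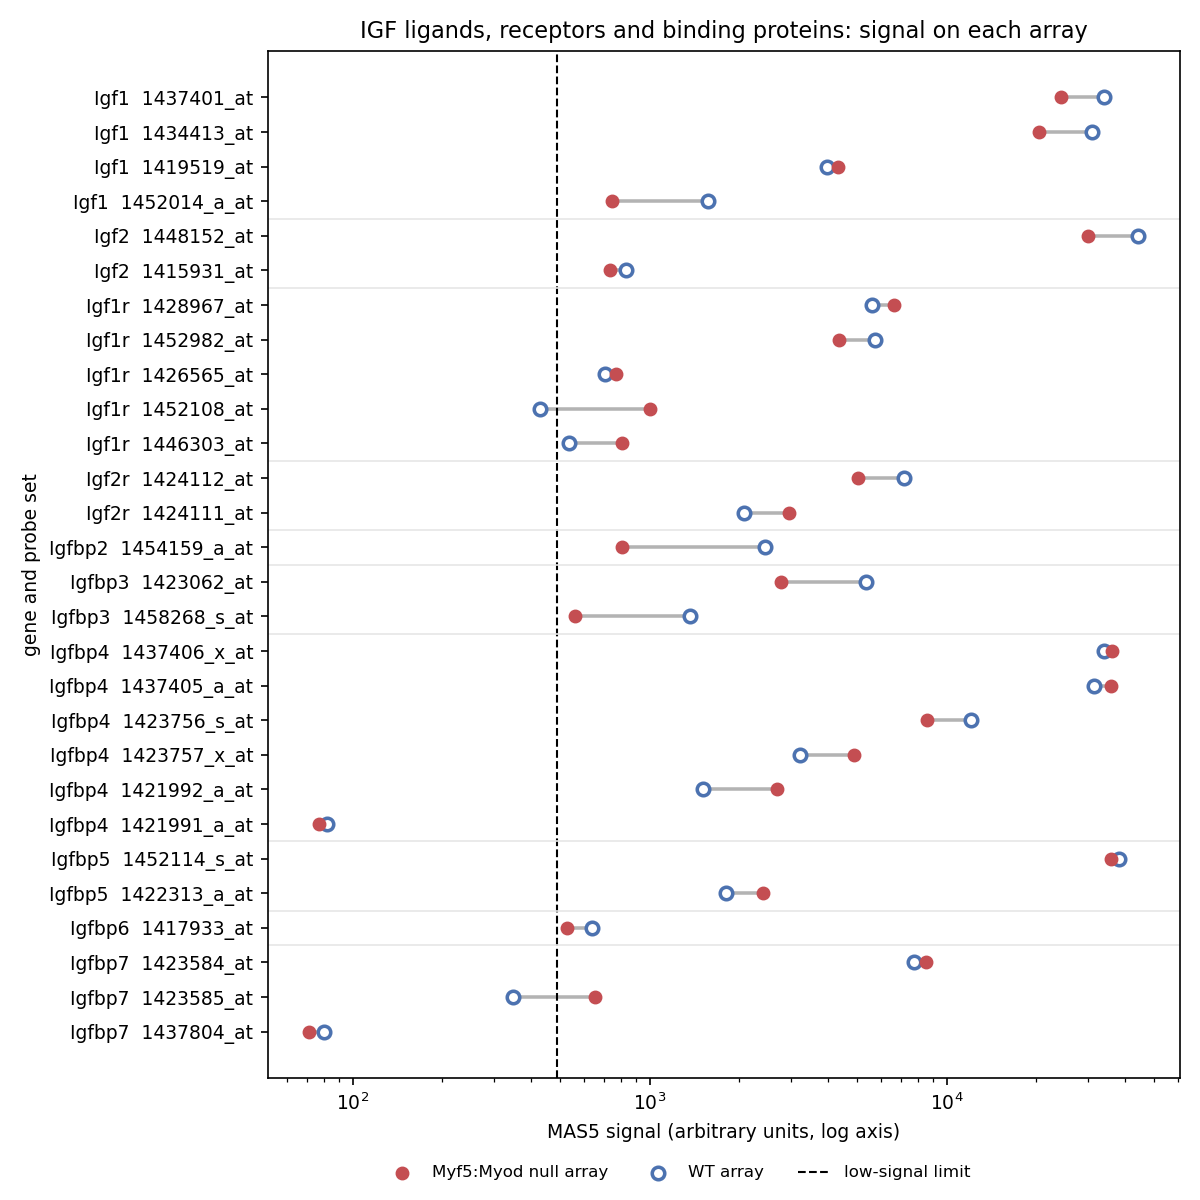
MAS5 signal (log axis) of all 28 probe sets of the 10 genes on the null array (filled red) and the WT array (open blue), with the low-signal limit of 489 as a dashed line. The widest gaps with both signals above the limit are those of Igfbp2 (808 on the null and 2456 on the WT array), the second Igfbp3 probe set and the dimmest Igf1 probe set, while the bright Igfbp4 and Igfbp5 probe sets nearly coincide.

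The sequences upstream of the 3 genes with a probe set at least 2-fold lower are shown because Myf5 and MyoD bind DNA at E-boxes, the 6-base motif CANNTG, whose matches are in capitals. Each line is the 250 bases before the first annotated start of the gene in RefSeq, read 5′ to 3′ on the gene's strand, from the GRCm38.p6 assembly. The windows are chr10:87860861-87861110 on the plus strand for Igf1, chr1:72824230-72824479 on the plus strand for Igfbp2 and chr11:7213924-7214173 on the minus strand for Igfbp3.
Igf1: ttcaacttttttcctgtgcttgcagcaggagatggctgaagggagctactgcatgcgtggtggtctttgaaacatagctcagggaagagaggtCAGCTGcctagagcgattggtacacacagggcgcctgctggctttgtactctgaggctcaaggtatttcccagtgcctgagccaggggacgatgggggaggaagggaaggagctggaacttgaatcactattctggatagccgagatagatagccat
Igfbp2: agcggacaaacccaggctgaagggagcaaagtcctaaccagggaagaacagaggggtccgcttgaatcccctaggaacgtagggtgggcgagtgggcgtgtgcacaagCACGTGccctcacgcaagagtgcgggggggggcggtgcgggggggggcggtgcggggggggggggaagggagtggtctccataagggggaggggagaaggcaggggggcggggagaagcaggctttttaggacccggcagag
Igfbp3: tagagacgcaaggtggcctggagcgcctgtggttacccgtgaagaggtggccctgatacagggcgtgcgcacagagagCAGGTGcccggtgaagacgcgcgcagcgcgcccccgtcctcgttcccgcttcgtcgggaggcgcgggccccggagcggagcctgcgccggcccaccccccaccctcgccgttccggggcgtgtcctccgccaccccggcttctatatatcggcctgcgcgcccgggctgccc

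Each of these windows holds 1 E-box. In Igf1 it is CAGCTG, beginning 157 bases before the start, in Igfbp2 it is CACGTG at 142 bases and in Igfbp3 CAGGTG at 172 bases. An E-box is common in sequence of this length: 66.2% of the 32817 RefSeq windows of 250 bases hold one, as did 9 of the 14 windows of the members (64.3%), counting every annotated start. CAGCTG, a form of CANNTG that MyoD prefers, was found in 1 of the 14 member windows, that of Igf1, and in 13.0% of all windows. CANNTG and CAGCTG read the same on both strands, so 1 search covers both. All 10 genes had at least 1 window in RefSeq, with 4 for Igf2 and 2 for Igfbp2.

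The member windows were rich in G and C. The share of G and C exceeded 60% in 8 of the 14, against 27.0% of all windows, and reached 77.6% for Igf1r, 74% for Igfbp7 and 73.2% for Igfbp3. It was 52.8% for Igf1 and 67.2% for the first window of Igfbp2. The GC box GGGCGG, searched on both strands, was present in 6 of the 14 member windows, against 32.7% of all windows, with 4 matches in Igfbp7 and 3 each in Igf2r and the first Igfbp2 window. The exact word TATAAA, a form of the TATA box, was also searched on both strands. That word was present in Igfbp4 and Igfbp6 alone among the members, and in 12.4% of all windows. In Igfbp4 it lay 28 bases before the start. In Igfbp6 it lay on the opposite strand, 148 bases before the start. Other forms were not searched, so the run of alternating T and A near the end of the Igfbp3 window was not counted. These matches describe the sequence and show no binding.

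Both ligands read lower on the null array at their brightest probe set, by less than 2-fold. Igf1, the growth factor that also acts as a hormone after birth, had 4 probe sets. Its brightest, 1437401_at, read 24198 on the null and 33869 on the WT array, 1.40-fold lower. The next, 1434413_at, read 20560.5 on the null and 30853 on the WT array, 1.50-fold lower. These 2 bright probe sets thus moved together. The dimmest, 1452014_a_at, read 750.2 on the null and 1579 on the WT array, 2.10-fold lower. The remaining one, 1419519_at, went the other way, with 4314 on the null and 3972 on the WT array, 1.09-fold higher. The 4 log2 ratios of Igf1 ran from -1.07 to 0.12 with an SD of 0.49, about as wide as the spread between probe sets of 1 gene in general.

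Igf2, the fetal ligand expressed from the paternal allele, had 2 probe sets. The brighter one, 1448152_at, read 29909 on the null and 44227 on the WT array, 1.48-fold lower. The other, 1415931_at, read 735 on the null and 832 on the WT array, 1.13-fold lower. Both log2 ratios were below 0, the first (-0.56) about equal to the pooled SD between probe sets and the second (-0.18) well inside it. Of all measured genes, 13.6% had a lower ratio than the brighter Igf2 probe set and 16.4% a lower one than the brightest of Igf1.

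The receptors had no common direction. Igf1r, the signalling receptor for both ligands, had 5 measured probe sets. The brightest, 1428967_at, read 6678 on the null and 5612 on the WT array, 1.19-fold higher. The second, 1452982_at, which is nearly as bright, read 4335 on the null and 5735 on the WT array, 1.32-fold lower. These 2 probe sets disagree in sign, with log2 ratios of 0.25 and -0.40, each less than the pooled SD away from 0. The other 3 read higher on the null array and were dim. Probe set 1426565_at read 774 on the null and 707 on the WT array, and 1446303_at read 808 on the null and 534 on the WT array. Probe set 1452108_at read 1004 on the null array and, below the limit, 428 on the WT array, at least 2.05-fold higher. It was the only member probe set past 2-fold in that direction.

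Igf2r, which clears IGF2 and also carries mannose 6-phosphate-tagged enzymes, had 2 probe sets that went opposite ways by a similar amount. The brighter, 1424112_at, read 5021 on the null and 7185 on the WT array, 1.43-fold lower. The other, 1424111_at, read 2949.8 on the null and 2081 on the WT array, 1.42-fold higher. The median of their log2 ratios was -0.01, so no direction can be given for Igf2r.

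Igfbp2 and Igfbp3 had the lowest ratios of the 10 genes. Igfbp2, a binding protein made at high levels in fetal tissues, had a single probe set, 1454159_a_at, that read 808 on the null and 2456 on the WT array. It was thus 3.04-fold lower, a log2 ratio of -1.60, and 1.86% of all measured genes had a lower one. With only 1 probe set there is no second reading of Igfbp2 on these arrays, and raising the limit to the 75th percentile of signal caps its log2 ratio at -0.81.

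Igfbp3, the main carrier of IGFs in adult serum, was lower at both of its probe sets. Probe set 1423062_at read 2780.2 on the null and 5349.6 on the WT array, 1.92-fold lower. Probe set 1458268_s_at read 561 on the null and 1364 on the WT array, 2.43-fold lower. The log2 ratios of -0.94 and -1.28 both exceed the pooled SD of 0.56. The brighter probe set lies just short of 2-fold, so whether Igfbp3 counts as 2-fold lower depends on the choice of probe set. Of all measured genes 5.89% had a lower ratio than the brighter probe set of Igfbp3.

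Igfbp4, Igfbp5 and Igfbp7 read about the same on both arrays at their brightest probe sets. Igfbp4, mostly an inhibitor of IGF action, had 6 probe sets. Its brightest, 1437406_x_at, read 36131 on the null and 33974 on the WT array, 1.06-fold higher, and 1437405_a_at read 35872 on the null and 31408 on the WT array, 1.14-fold higher. Of the dimmer ones, 1423756_s_at was 1.41-fold lower, 1423757_x_at 1.52-fold higher and 1421992_a_at 1.78-fold higher. The sixth, 1421991_a_at, was not measured, at 77.1 on the null and 82.1 on the WT array. The 5 measured log2 ratios of Igfbp4 ran from -0.50 to 0.83 with an SD of 0.51, and they fell on both sides of 0.

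Igfbp5, a binding protein that cultured mouse myoblasts secrete as they differentiate, had 2 probe sets. The brighter, 1452114_s_at, read 35789 on the null and 38045 on the WT array, 1.06-fold lower, and its ratio turned to 0.02 with quantile normalization. The other, 1422313_a_at, read 2417 on the null and 1806 on the WT array, 1.34-fold higher. Neither departs from 0 by more than the pooled SD.

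Igfbp7, a relative that binds IGFs weakly, had a bright probe set, 1423584_at, that read 8505 on the null and 7743 on the WT array, 1.10-fold higher. A dim one, 1423585_at, read 655 on the null array and, below the limit, 346 on the WT array, at least 1.34-fold higher, and 1437804_at was not measured, at 71.5 on the null and 80.4 on the WT array. Igfbp6, which prefers IGF2 over IGF1, had 1 dim probe set, 1417933_at, with 528 on the null and 642 on the WT array. Both signals lie just above the limit, and the log2 ratio of Igfbp6 was -0.28.

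**Figure D2:**
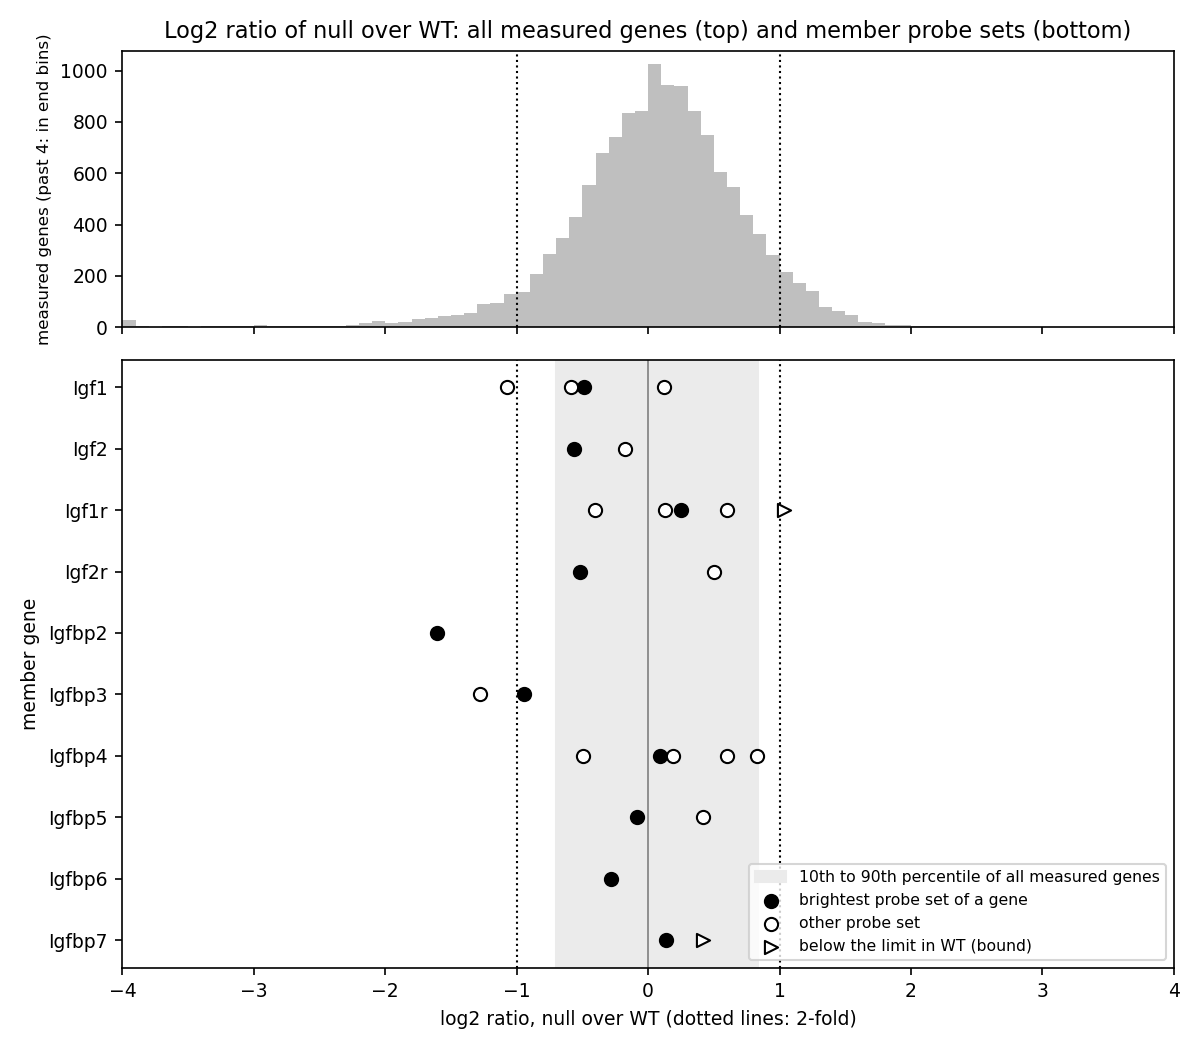
Log2 ratio of the null over the WT array. The upper panel counts the 13315 measured genes and the lower panel shows the 26 measured probe sets by gene, with the brightest of each gene filled, bounds as triangles and the 10th to 90th percentile of all genes (-0.70 to 0.83) shaded. Igfbp2, both probe sets of Igfbp3 and 1 of Igf1 lie left of the shading, and 1 Igf1r bound lies right of it.

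Probe sets of 1 gene often disagreed in sign. Of the 8 members with several measured probe sets, 3 (Igf2, Igfbp3 and Igfbp7) had all ratios on one side of 0, which is 37.5%, against 47.7% of the 5455 such genes on the arrays. By position in the GRCm38.p6 annotation, Igfbp2 and Igfbp5 are neighbouring genes on chromosome 1, Igfbp3 lies next to Igfbp1 on chromosome 11, and Igf2 next to the insulin gene Ins2 on chromosome 7. The neighbours did not read alike: the brightest probe set gave -1.60 for Igfbp2 and -0.09 for Igfbp5 on the log2 scale.

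The wider pathway was described through a list of 56 other genes, of which 51 had a probe set analysed here and 47 were measured. Of the 47, 4 were lower by 2-fold or more on the null array and 3 were higher by as much, 8.51% and 6.38%, near the background of 5.36% and 6.01%. The split became 4 and 2 after centring on the median and 6 and 2 with loess. The median log2 ratio of the 47 genes was 0.22, against 0.09 for all measured genes, and for 10 of them the ratio was a bound.

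The 4 lower genes belong to the signalling chain inside the cell. Akt1, a kinase at the centre of that chain, read 1123 on the null and 3745 on the WT array, 3.33-fold lower at its only measured probe set. Irs1, the docking protein that the activated receptor phosphorylates, read 4099.6 on the null and 9462 on the WT array, 2.31-fold lower at its only measured probe set. Eif4ebp1, a repressor of translation that mTOR complex 1 switches off, read 3043 on the null and 6877 on the WT array, 2.26-fold lower. It was the one lower gene read by several probe sets, and the log2 ratios at its other 2 were -1.23 and -1.04. Pik3cb, a catalytic subunit of phosphoinositide 3-kinase, read 609 on the null and 1255 on the WT array, 2.06-fold lower. Genes of the same chain went both ways at their brightest probe sets. The list holds 10 measured genes of phosphoinositide 3-kinase, Akt and their regulators, with Akt1 and Pik3cb included. In that group 6 had a ratio below 0 and 4 above, with a median of -0.46. Among the 14 measured genes listed downstream, with Eif4ebp1 included, 7 lay below 0 and 7 above. Pik3r1, a regulatory subunit of the same kinase, read 1.78-fold higher at the brightest probe set (31890.3 on the null and 17891 on the WT array), and the log2 ratios at its other 2 were 0.80 and, as a bound, 1.43, the second past 2-fold. The transcription factor gene Foxo3 was 1.81-fold higher. On the lower side, Akt2 was 1.81-fold, Grb10 1.76-fold and Pik3r2 1.73-fold lower. The second measured probe sets of Akt2 and Grb10 had log2 bounds of 0.41 and 0.02.

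The 3 higher genes were all below the limit on the WT array, so their ratios are bounds. Igf2bp1, whose protein binds Igf2 mRNA among others, read 1443 on the null and 427 on the WT array, at least 2.95-fold higher, while of its other 2 measured probe sets 1 read much lower, with 143 on the null array, under the limit, and 978 on the WT array, and 1 slightly higher, with a log2 bound of 0.16. Irs4, another docking protein, read 1094 on the null and 386 on the WT array, at least 2.24-fold higher. Pappa2, a protease that cuts IGFBP3 and IGFBP5, read 1035 on the null and 84.4 on the WT array, at least 2.12-fold higher.

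The remaining genes that act on ligands and binding proteins were not counted as 2-fold apart at their brightest probe set, where some have only a bound. Pappa, the protease that releases IGFs from IGFBP4, read 539 on the null and 883 on the WT array, 1.64-fold lower, but its second probe set had a log2 bound of 0.74. Stc1 and Stc2, secreted inhibitors of that protease, had bounds of 1.90-fold and 1.59-fold higher, each from a WT signal under the limit, which sets no upper size. The other 2 measured probe sets of Stc2 had opposite signs, with log2 bounds of -0.91 and 0.35. Htra1, a secreted serine protease, was 1.21-fold higher, and its second probe set had a log2 ratio of -0.17. The insulin receptor gene Insr, which pairs with Igf1r in hybrid receptors, read 17998 on the null and 9442 on the WT array, 1.91-fold higher at its only measured probe set. Igf2bp3 read 19821 on the null and 11907 on the WT array, 1.66-fold higher, with its 4 other probe sets between -0.45 and 0.67. Irs2 was not measured, at 446 on the null and 391 on the WT array. Of the hormone input genes, at their brightest probe sets, Ghr was 1.07-fold, Stat5b 1.10-fold and Socs2 1.03-fold higher, and Stat5a was at least 1.41-fold higher. Other probe sets of these genes spread more widely, with log2 ratios from -0.13 to 0.77 for 2 of Ghr, 0.83 for 1 of Stat5b and from -0.02 to 1.16 for 3 of Socs2, the highest of each being a bound.

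**Figure D3:**
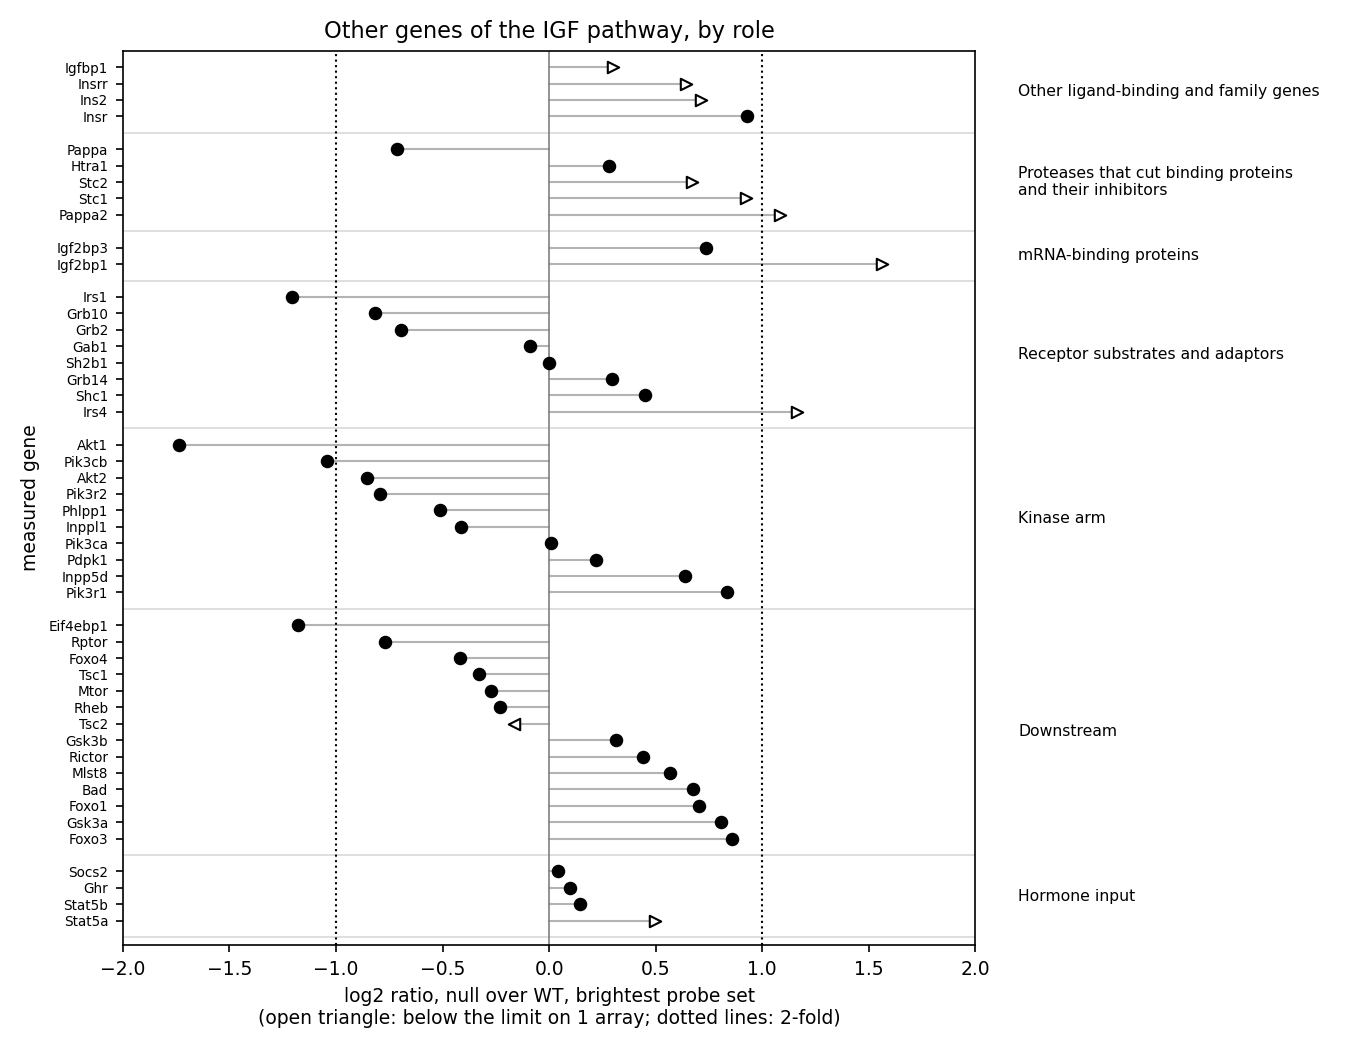
Log2 ratio of the null over the WT array for the 47 measured genes of the wider IGF pathway, at the brightest probe set, grouped by role; open triangles are bounds and dotted lines mark 2-fold. Akt1, Irs1, Eif4ebp1 and Pik3cb lie past the left line, and the bounds of Igf2bp1, Irs4 and Pappa2 past the right one.

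The member ratios were recomputed under 8 other ways of scaling, limiting and summarising the signals. Igf1, Igf2, Igf2r, Igfbp2, Igfbp3 and Igfbp6 had a ratio below 0 in each alternative that measured them, and Igf1r, Igfbp4 and Igfbp7 a ratio above 0 in all 8. Igf2r came within 0.01 of 0 with the median of its probe sets, and Igfbp4 was at 0.003 after centring. Several of the alternatives can move a member ratio only a little or not at all, so an unchanged sign is weak evidence. The ratio of Igfbp5 was below 0 in 5 of the 8. These alternatives reuse the same 2 arrays and say nothing of variation between embryos.

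**Figure D4:**
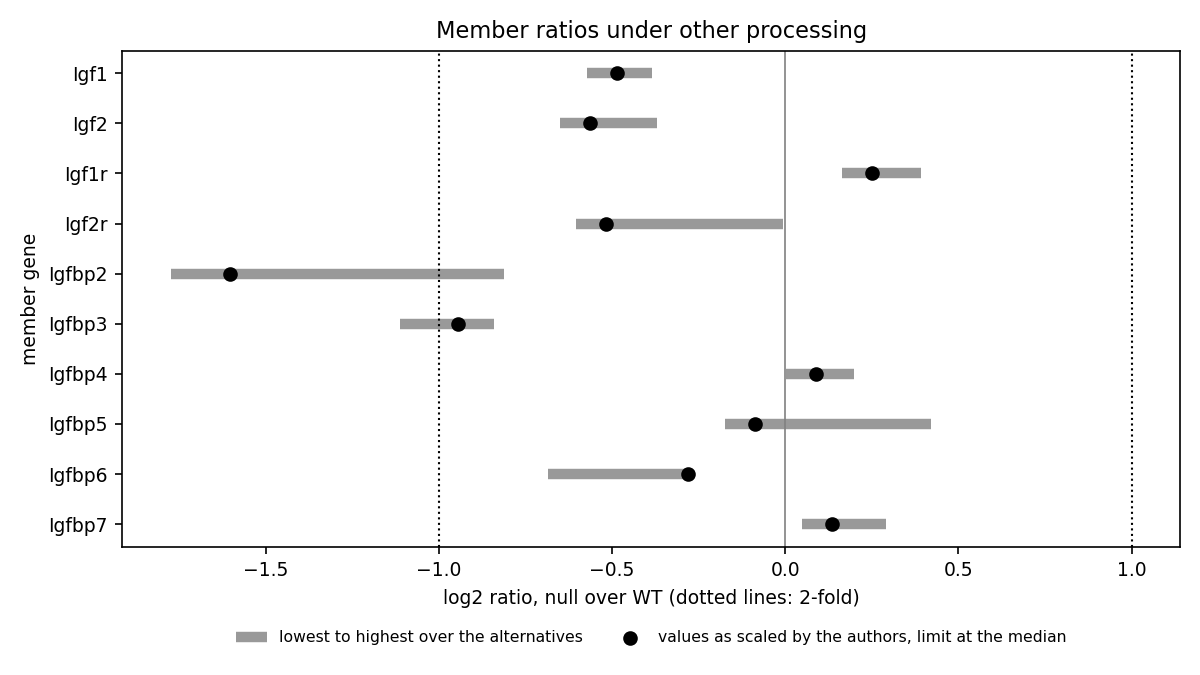
Log2 ratio of the null over the WT array for each member gene as reported (points) and its range over the 8 alternatives (bars). The bar of Igfbp2 is the longest, from -1.77 to -0.81, the bar of Igfbp3 spans the 2-fold line, and that of Igfbp5 spans 0.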

How the data were processed

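Total RNA (6 µg) from fetal esophagus was labelled and hybridised to Affymetrix arrays, 1 array per genotype, per the labels' protocols. The authors deposited linear signal intensities, and the submitters' processing notes name MAS5; the sources used here give no version, settings or detection calls. Both arrays had a mean of 1500 after trimming 2% from each end. Of 45101 probe sets, 64 controls were left out, 932 had several symbols, 9160 are unnamed here, and 34945 had 1 symbol from GEO's platform annotation, updated by Entrez ID through RefSeq GRCm38.p6 (34741 matched). A gene took its probe set with the highest mean signal. Called means at least 2-fold apart. No test was possible. The number of arrays limits the precision.

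All probe sets of the 10 members are given. Pathway genes are named where 2-fold apart, by role or, as with Pik3r1 and Foxo3, as examples of either direction. Not every receptor substrate or adaptor is named. The members and lists were chosen with earlier results of these data known. Alternatives were centring, quantile normalization, loess (span 0.3), moving the low-signal limit to percentile 25 or 75, a pseudocount of 16 in place of the limit, summarising each gene by its median probe set, dropping probe sets ending in _x_at or _s_at, and a 4-fold threshold. The steps were tested on simulated data with changes planted only in bright genes and with noise smaller than the pooled SD between probe sets. That does not test how changes near the low-signal limit are recovered. Python 3.11.15, numpy 2.4.6, pandas 2.3.3 and statsmodels 0.14.6 were used.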

Additional observations from a re-analysis of the deposited data

Results flagged for a closer look

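A probe set outside the counts above, 1440979_at, is annotated to both Airn and Igf2r and was left out for having 2 symbols. It read 800.02 on the null array, above the low-signal limit, and 273 on the WT array, below it. It is listed here as a signal in data that no comparison used.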

How the results depend on the processing

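The count of members at least 2-fold lower was 1 as reported. It was 2 after centring and 2 when each gene was summarised by its median probe set. In these settings Igfbp3 also passed 2-fold, at log2 ratios of -1.03 and -1.11. The median probe set also moved the median log2 ratio of the members to -0.14. The count of lower members was 0 at 4-fold and 0 once the limit was raised to percentile 75, which put the log2 ratio of Igfbp2 at -0.81. In the other 5 alternatives it stayed at 1, and the count of higher members was 0 in all 9. For the wider pathway the median was 0.136 after centring, 0.0687 with loess, 0.0401 under the raised limit and 0.0804 without probe sets ending in _x_at or _s_at. Its count of higher genes was 7 under a limit lowered to percentile 25, 8 without any limit and 0 under the raised limit, and at 4-fold 0 were lower and 0 higher. Over all genes, loess gave 449 higher. The lower and higher counts were 1232 and 2742 under the lowered limit, 383 and 148 under the raised one, 1704 and 3548 without any limit, and 142 and 21 at 4-fold. The raised limit leaves fewer genes measured, 7980, and Igfbp6 is no longer among them. The lowered limit leaves more genes measured, 16539, and without any limit all 18193 are counted. The 4-fold counts are smaller because that cut is stricter. For the remaining moves the cause was not tested. Of 79 member ratios recomputed, 78 moved by less than the pooled SD between probe sets. Much of that count was fixed by the settings. Centring shifts every ratio by the same 0.09, and moving the limit leaves a ratio unchanged where both signals stay above it. The count is thus no measure of how reliable the ratios are. No paired analysis was possible because each genotype has 1 array. Signals near the limit, such as those of Igfbp6, cannot be told from low background.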

Other observations

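Antisense transcripts at the ligand loci, named here after their values were seen, were read by 1 probe set each. Igf2os read 2071 on the null and 1304 on the WT array, 1.59-fold higher, while both Igf2 probe sets read lower on the null array. Igf1os was below the low-signal limit on both arrays, at 319 on the null and 105 on the WT array.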
